A study of Mus musculus with 16 samples.

Results

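Cancer cells sorted as mScarlet, read here from the titles as positive for mScarlet and negative for GFP, were compared with cells negative for both colours. The members are all 4 libraries titled mScarlet and all 4 titled Dneg, called DN here, which make up 8 of the 16 libraries of the series. Each title carries a number from 1 to 4. Libraries of the same number were taken as pairs in a fit with the number as a block and in differences within numbers. The main calls and their p-values come from a fit without the pairing. The cells are KPC 7TCF-eGFP/Porcn-DMA PDAC cells, a mouse pancreatic ductal adenocarcinoma (PDAC) line that was grown in the pancreas of mice, taken apart and sorted by flow cytometry. The mScarlet and DN groups are the same line with the same constructs, sorted through different gates, and the series text gives 4 mice per group. In 7TCF-eGFP the green fluorescent protein is under control of TCF sites, so by their titles both groups were sorted without the signal of the WNT reporter. The composition of Porcn-DMA, the promoter of mScarlet, whether the line is 1 clone, and the strain, age and sex of the host mice are facts not given in the sources used. The series text lists a population that secretes WNT, but no label ties that name to the mScarlet gate. The other 8 libraries, 4 positive for both colours (DP) and 4 positive for GFP alone (GFP), helped to estimate the spread and served for 1 comparison at the end.

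WNT proteins are secreted lipoproteins. Porcn attaches their fatty acid in the endoplasmic reticulum, Wls carries them to the cell surface, and Frizzled and Lrp receptors pass the signal to beta-catenin and the TCF factors. Pancreatic cancers are often described on a scale from a classical state, with genes of gastric and intestinal epithelium such as trefoil factors and mucins, to a basal-like or mesenchymal state. Tumour cells that take up much glucose express the glycolytic enzymes at a high level, and many of these genes are targets of the hypoxia-inducible factor HIF.

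Total counts ran from 80728607 to 92937247 per library in mScarlet and from 88707082 to 104273669 in DN. In mScarlet 15476 to 17791 genes had at least 1 count, and in DN 16219 to 17741. For a gene at 0 the floor of 3 counts stood at 0.0323 to 0.0388 CPM (counts scaled to library size) in mScarlet and 0.0284 to 0.0332 CPM in DN. The epithelial keratin Krt8 was at 8515 to 12740 CPM in mScarlet and 8096 to 9391 CPM in DN, and E-cadherin, Cdh1, was at 883 to 1446 CPM and 539 to 926 CPM. Epcam, another epithelial surface marker, was at 0 to 0.375 CPM in mScarlet and 0 to 0.426 CPM in DN, so the epithelial label rests on keratins and Cdh1 and not on Epcam. Some libraries stood apart in markers of other cells. The summed level of 20 macrophage markers was 1740, 1733, 1377 and 3773 CPM in mScarlet libraries 1 to 4, against 5291, 1486, 2163 and 1199 CPM in DN libraries 1 to 4, with the highest value of mScarlet in library 4 and the highest of DN in library 1. The summed level of 20 fibroblast markers was 1026 to 1417 CPM in mScarlet and 1301 to 2877 CPM in DN, highest in DN library 4. The sums overlapped, but all 20 markers were lower in mScarlet, with a median log2 fold change of -3.242. The globin gene Hba-a1 was at 135 and 41.5 CPM in mScarlet libraries 1 and 3 and at 183 and 63.9 CPM in DN libraries 1 and 3, but at no more than 0.432 CPM in numbers 2 and 4 of either gate. In bulk libraries, fewer cells of a type and less RNA per cell cannot be told apart.

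Genes were called where the Benjamini-Hochberg adjusted p of edgeR's quasi-likelihood test fell under 0.05. Of 15963 genes tested, 188 were called (1.18%), 77 higher in mScarlet (0.482%) and 111 lower (0.695%). Porcn and genes of gastric and intestinal epithelium were among the higher ones, and genes of glycolysis, serine synthesis and mitosis among the lower ones. A fit with the number as a block called 865 (5.42%), of which 402 were higher (2.52%) and 463 lower (2.9%), all 188 included. The count depended on single libraries. Leaving out mScarlet libraries 1, 2, 3 and 4 in turn gave 23, 48, 34 and 312 calls. Leaving out DN libraries 1, 2, 3 and 4 gave 17, 92, 162 and 56. None of the 188 genes changed sign in any of these fits. The spread was estimated over all 16 libraries, of which GFP libraries 1 and 4 stood apart in markers of other cells, with summed macrophage markers of 38102 CPM in GFP library 1 and summed acinar markers of 36908 CPM in GFP library 4. Without these GFP libraries 580 genes were called, 262 higher and 318 lower. All 188 genes differed in the same direction within each of the 4 numbers, which 14% of all genes tested did upwards and 14.6% downwards, and in 185 of them the mScarlet and DN libraries did not overlap. Across all genes tested the mScarlet libraries lay wholly above the DN libraries in 5.03% and wholly below in 6.06%. The 188 were called on these same libraries, so equal signs and no overlap largely follow from the call and are no separate support. The gene lists below were written with earlier results of these data known, so shares set beside them are descriptions.

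**Figure D1:**
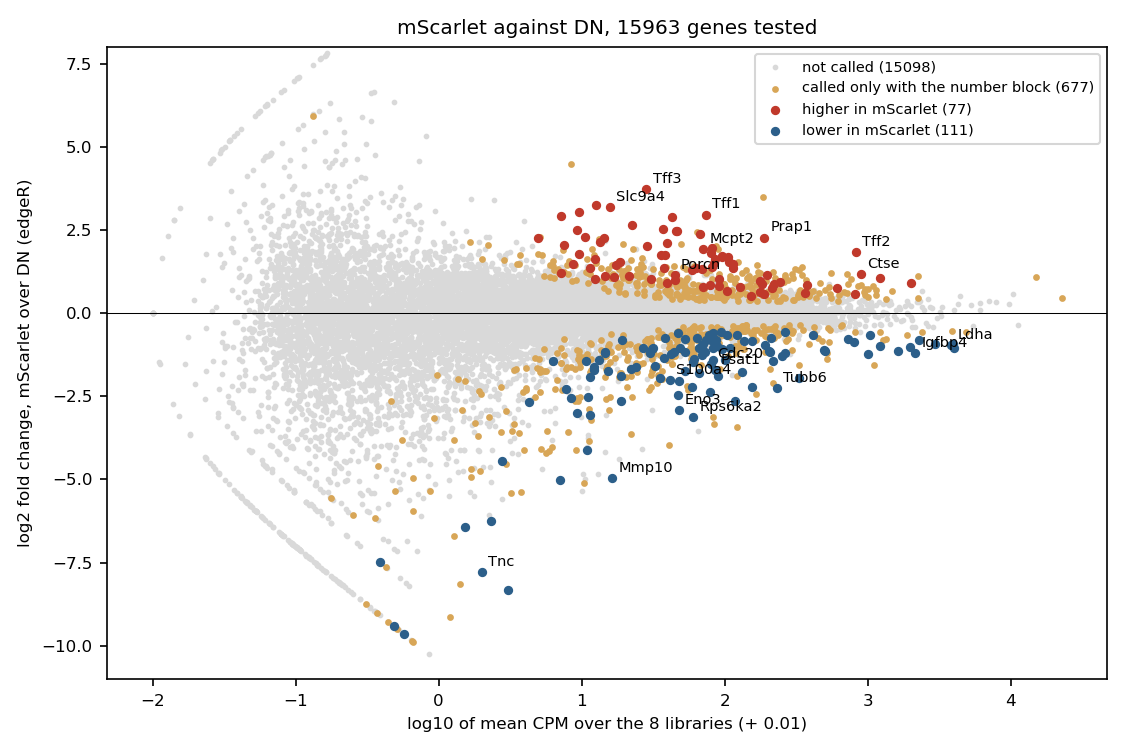
Log2 fold change of mScarlet over DN (vertical axis) against the log10 of the mean CPM over the 8 libraries (horizontal axis) for the 15963 genes tested, 1 point a gene. The 77 genes called higher are red, the 111 called lower are blue, and the 677 called only with the number as a block are ochre; at high levels the lower genes include Ldha and Igfbp4 and the higher ones Tff2 and Ctse.

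Porcn was higher in mScarlet, and no other tested gene of the WNT secretion route was called. The acyltransferase of WNT proteins was at 76.0, 64.3, 65.5 and 40 CPM in mScarlet libraries 1 to 4, against 28.7, 24.2, 34.0 and 25.0 CPM in DN libraries 1 to 4. The groups did not overlap, mScarlet library 4 being the lowest of its gate and DN library 3 the highest. The mean was 61.5 ± 15.3 CPM in mScarlet and 28.0 ± 4.47 CPM in DN (SD, n = 4 each), a log2 fold change of 1.14 (SE 0.23, adjusted p = 0.0262 in edgeR). The call was lost without mScarlet library 1, 2 or 3 (adjusted p = 0.114, 0.101 and 0.079 in edgeR) and without DN library 1, 2 or 4 (0.0889, 0.0776 and 0.0976). Porcn lies on chromosome X (8193846 to 8206548 in GRCm38.p6), and reads from a Porcn sequence in Porcn-DMA, if there is one, cannot be told apart from those of the gene. Of the 12 tested genes of the WNT secretion route, Porcn was the 1 called. Among all genes tested 0.482% were called higher and 0.695% lower. Wls was at 78.9 ± 17.5 CPM in mScarlet and 75.8 ± 17.7 CPM in DN (adjusted p = 0.951 in edgeR). Of 12 tested WNT ligands 0 were called. Their median log2 fold change was -1.356, and 10 of the 12 were negative. In log2(CPM + 1) their median difference was -0.417, -0.353, -0.154 and -0.323 in numbers 1 to 4. With the number block 1 ligand was called, Wnt10a, at 73.0 ± 19.8 CPM in mScarlet and 168 ± 54.3 CPM in DN (adjusted p = 0.0644 in edgeR, and 0.00194 with the block). Wnt7b was at 297 ± 32.2 CPM in mScarlet and 366 ± 52.1 CPM in DN (adjusted p = 0.483 in edgeR). Wnt4 was at 93.5 ± 19.5 CPM and 54.4 ± 9.14 CPM (adjusted p = 0.182 in edgeR). Among 19 receptors and ubiquitin ligases, Lgr6, an R-spondin receptor, was called lower, at 2.05, 4.49, 2.69 and 11.8 CPM in mScarlet against 54.3, 33.1, 9.78 and 32.6 CPM in DN (log2 fold change -2.63 with an SE of 0.56, adjusted p = 0.0353 in edgeR). mScarlet library 4 lay above DN library 3, so the groups overlapped, and the call was lost without any of mScarlet libraries 1 to 3 or DN libraries 1, 2 and 4, where the edgeR adjusted p reached 0.133. Of 21 tested WNT/beta-catenin targets and TCF factors 0 were called, and 0 with the block, with a median log2 fold change of 0.004 beside -0.003 over all genes tested. Axin2, a feedback target, was at 0 to 0.022 CPM in mScarlet and 0.0216 to 0.369 CPM in DN. All 7 tested secreted WNT inhibitors were negative, with a median log2 fold change of -4.372. In log2(CPM + 1) their median difference was -0.523, -0.042, -0.194 and -1.811 in numbers 1 to 4. It was largest in size in number 4, whose DN library had the highest fibroblast sum, and the part of fibroblast RNA was not tested. The inhibitor list summed to 1033 to 1676 CPM in mScarlet and 2181 to 4206 CPM in DN, most of it Igfbp4. The median fold change thus rests on members at low levels. Igfbp4, which binds insulin-like growth factors and also antagonises WNT receptors, was 1 called of 7 tested secreted inhibitors, at 1304 ± 269 CPM in mScarlet and 2979 ± 894 CPM in DN (log2 fold change -1.19 with an SE of 0.27, adjusted p = 0.0429 in edgeR; up to 0.174, without DN library 1).

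Trefoil factors and genes of mucus-forming epithelium had the highest median change of the lists. Of 19 tested genes of this group 5 were called higher and 0 lower, against 0.482% higher among all genes tested. With the number block 9 were higher and 0 lower, against 2.52% higher among all genes tested. The median log2 fold change was 1.48, and 18 of the 19 were positive. The list was written with earlier results known and holds the marker Tff3, so these counts describe it and are no test. Tff3, a peptide secreted with intestinal mucus, was at 95.4, 18.7, 88.5 and 8.44 CPM in mScarlet libraries 1 to 4, against 4.74, 3.77, 5.62 and 1.77 CPM in DN. mScarlet libraries 1 and 3 held by far the most, and the groups did not overlap. Its log2 fold change was 3.73 (SE 0.80, adjusted p = 0.0418 in edgeR). Tff1, a gastric trefoil peptide, was at 176, 64.5, 230 and 53.3 CPM in mScarlet against 16.8, 10.7, 29.0 and 10.7 CPM in DN, again with libraries 1 and 3 high in mScarlet and no overlap (log2 fold change 2.96 with an SE of 0.58, adjusted p = 0.0261 in edgeR). Tff2, the trefoil peptide of mucous neck cells, was at 1953, 1069, 1462 and 666 CPM in mScarlet against 318, 377, 488 and 255 CPM in DN (log2 fold change 1.84 with an SE of 0.37, adjusted p = 0.0258 in edgeR). All 4 mScarlet libraries lay above all 4 DN libraries for Tff2 too, with the lowest mScarlet level in library 4. Another called member was Agr2, a disulfide isomerase needed for mucin folding (log2 fold change 2.02, adjusted p = 0.0258 in edgeR). The last was Clca1, a secreted protease of goblet cell mucus (3.24, adjusted p = 0.0258 in edgeR). Muc1, a membrane mucin, was at 3494, 3667, 3141 and 1994 CPM in mScarlet against 889, 1905, 1871 and 1034 CPM in DN, and it was called with the block alone (log2 fold change 1.11, adjusted p = 0.221 in edgeR, and 0.0228 with the block). Single libraries decided these calls: 0 of the 5 were left without DN library 1, 2 or 4 or without mScarlet library 1 or 3. Between 3 and 6 members were called without mScarlet 2, mScarlet 4 or DN 3. For Tff3 the edgeR adjusted p was 0.138 without DN library 1 and 0.13 without mScarlet library 1. Tff3 lost its call in 14 of 31 alternative fits. Among them were edgeR without a low-count filter (adjusted p = 0.0646), edgeR on the 8 mScarlet and DN libraries alone (0.0548) and limma voom (0.0656). Tff1 and its overlapping lncRNA Gm15318 cannot be told apart where strand is not stated. The macrophage sum was 1740 CPM in mScarlet library 1 and 1377 CPM in mScarlet library 3, against 5291 and 2163 CPM in DN libraries 1 and 3. The 14 normal duct markers summed to 15967 to 21222 CPM in mScarlet and 13298 to 13953 CPM in DN, without overlap. Of 13 tested 11 were positive, 0 were called and 2 were higher with the block. The duct list includes Krt19, which also marks the cancer epithelium. The part of other cells in the mucus result was not tested.

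**Figure D2:**
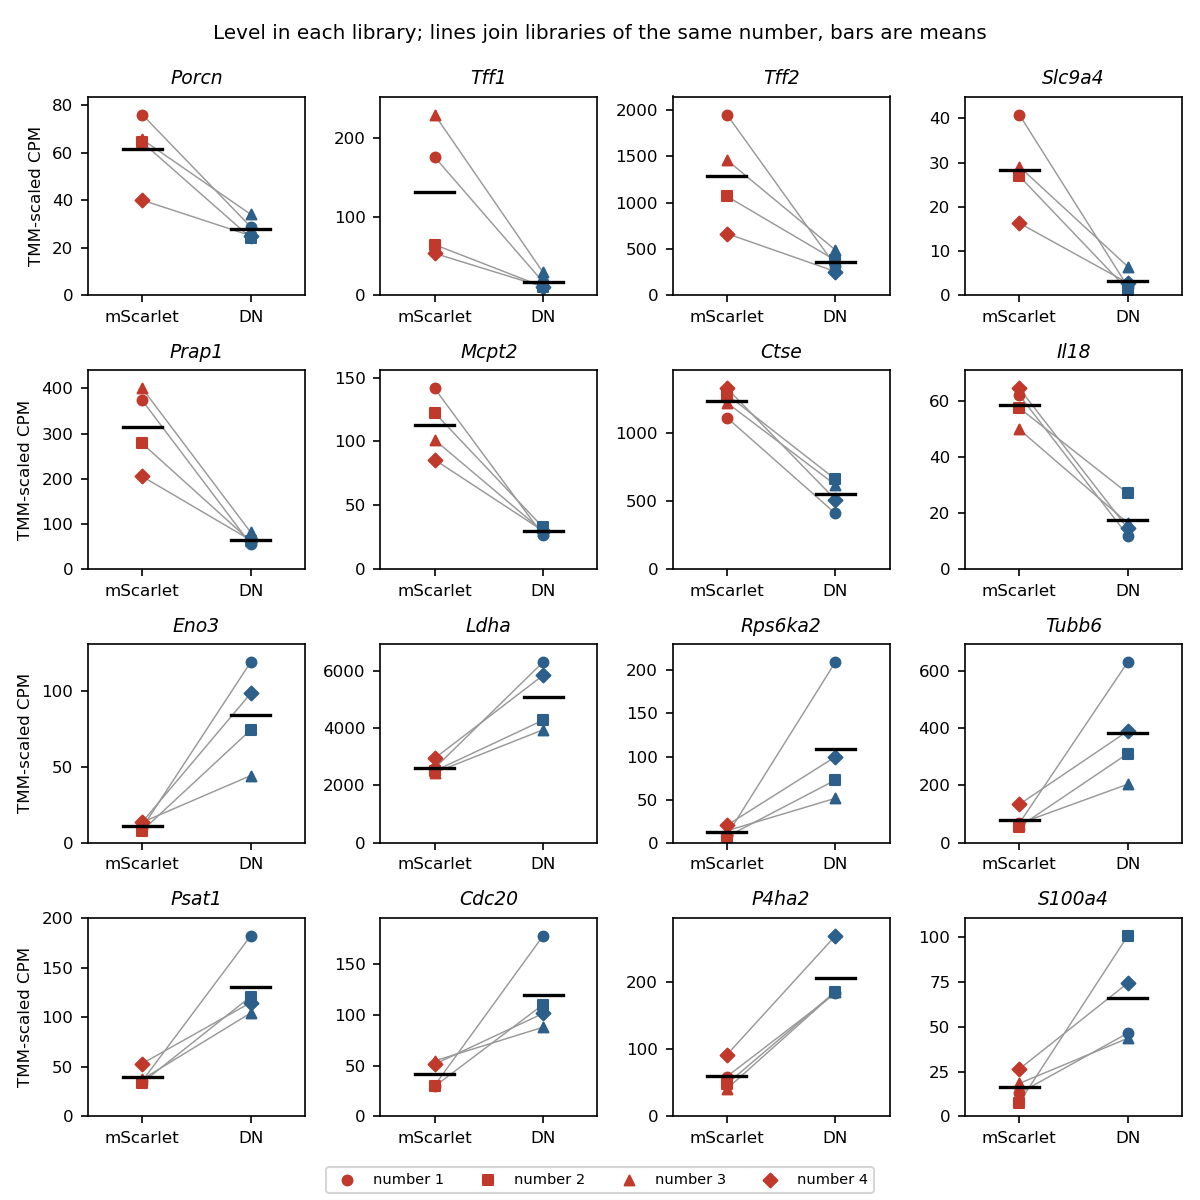
TMM-scaled CPM (vertical axes, from 0) of 16 genes in the 4 mScarlet libraries (red, left) and the 4 DN libraries (blue, right); symbols mark the library number, grey lines join equal numbers and black bars are means. In each panel the mScarlet libraries lie wholly on one side of the DN libraries, and in the lower genes mScarlet library 4 is often nearest to DN, as with Tubb6 at 133 CPM.

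Some genes of the intestinal brush border and of drug metabolism were called higher. Of 29 tested enterocyte and brush border genes 3 were called higher and 0 lower, with a median log2 fold change of 0.95. With the block 7 were higher and 2 lower. Among all genes tested 0.482% were called higher, and with the block 2.52% were higher and 2.9% lower. Slc9a4, a sodium-proton exchanger of the stomach, was at 40.9, 27.0, 29.1 and 16.3 CPM in mScarlet against 1.94, 1.23, 6.47 and 2.76 CPM in DN. Every mScarlet library was above every DN library, and DN library 3 was the highest of its gate. The log2 fold change was 3.19 (SE 0.51, adjusted p = 0.0112 in edgeR; 0.0524 without DN library 1). Alpi, the intestinal alkaline phosphatase, was at 51.7, 32.3, 45.4 and 26.3 CPM in mScarlet against 7.23, 2.82, 6.38 and 8.47 CPM in DN (log2 fold change 2.64 with an SE of 0.49, adjusted p = 0.0185 in edgeR). The groups did not overlap; the edgeR adjusted p was 0.0632 without mScarlet library 1, 0.0527 without mScarlet library 3 and 0.0634 without DN library 1. Lypd8, a secreted protein of the colon that keeps bacteria from the epithelium, was at 174, 48.0, 40.8 and 38.7 CPM in mScarlet against 7.71, 11.2, 12.1 and 9.52 CPM in DN (log2 fold change 2.90, adjusted p = 0.0201 in edgeR). Here mScarlet library 1 stood far above the other mScarlet libraries, and the edgeR adjusted p was 0.0522 without it, 0.0889 without DN library 1, 0.054 without DN 2 and 0.0782 without DN 4. The brush border structure genes Vil1, Cdhr2, Cdhr5 and Espn were called with the block alone, with log2 fold changes of 0.93, 1.23, 1.15 and 1.46 (adjusted p = 0.0223, 0.0235, 0.0138 and 0.0159 in edgeR with the block). Of the 29 tested members 21 were positive and 8 negative, so some did not follow. Cdx2, an intestinal transcription factor, was at 12.1 ± 4.8 CPM in mScarlet and 9.52 ± 2.37 CPM in DN (adjusted p = 0.771 in edgeR). The enterocyte genes Fabp1 and Sis averaged no more than 0.3 CPM in either gate. The apolipoprotein Apoa1 was lower with the block (log2 fold change -2.63, adjusted p = 0.128 in edgeR, and 0.0213 with the block). Of 31 tested genes of drug and xenobiotic metabolism 4 were called higher and 0 lower, with 11 higher and 0 lower with the block and a median of 0.87. They were the carboxylesterases Ces2b and Ces2c (log2 fold changes 3.03 and 2.46), the sulfotransferase Sult1b1 (2.91) and the cytochrome P450 Cyp3a13 (1.5), with edgeR adjusted p-values of 0.0112, 0.013, 0.0176 and 0.0479. Ces2b and Ces2c are close copies of each other and may exchange reads. Ces2c was at 92.5, 75.2, 99.3 and 49.2 CPM in mScarlet against 9.82, 15.2, 21.5 and 11.1 CPM in DN, without overlap. Of these 4 calls 0 were left without DN library 1, 1 without DN 4, 1 without mScarlet 1 and 2 without mScarlet 3. In the brush border list 0 were left without DN 1 and 1 without mScarlet 1.

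Of 32 tested genes of classical PDAC and endoderm identity 3 were called higher and 0 lower, and with the block 5 and 0. The shares over all genes tested were 0.482% higher and 0.695% lower, and with the block 2.52% and 2.9%. Cathepsin E, Ctse, an aspartic protease of gastric surface cells, was at 1114, 1285, 1224 and 1330 CPM in mScarlet against 409, 661, 619 and 511 CPM in DN (log2 fold change 1.17 with an SE of 0.25, adjusted p = 0.0329 in edgeR). The lowest mScarlet library was well above the highest DN library. Lgals4, a galectin of gut epithelium, and Klf4, a transcription factor of differentiated epithelium, had log2 fold changes of 1.04 and 0.91 (adjusted p = 0.0479 and 0.0378 in edgeR). All 3 calls were lost without mScarlet library 1, 2 or 3 and without DN library 1, 2 or 4, where the highest edgeR adjusted p was 0.133 for Ctse, 0.13 for Klf4 and 0.174 for Lgals4. The transcription factors that set endoderm and pancreas identity differed by less than their spread: Gata6 was at 41.8 ± 5.86 CPM in mScarlet and 40 ± 8.8 CPM in DN (adjusted p = 0.941 in edgeR), Hnf4a at 184 ± 40.6 CPM and 172 ± 28.2 CPM (adjusted p = 0.921 in edgeR) and Foxa2 at 79.1 ± 13.7 CPM and 83.6 ± 14.0 CPM (adjusted p = 0.896 in edgeR). Of 20 tested basal-like and squamous genes 1 was called, Lgals1, a galectin of mesenchymal cells, at 854, 829, 1102 and 1315 CPM in mScarlet against 2261, 2057, 1552 and 3115 CPM in DN (log2 fold change -1.13 with an SE of 0.23, adjusted p = 0.0289 in edgeR; lost without mScarlet 1, 2 or 3 or DN 1, 2 or 4, up to 0.122). The groups did not overlap. Of 30 epithelial adhesion genes 0 were called and 4 were higher with the block, among them Cdh1 (log2 fold change 0.74, adjusted p = 0.274 in edgeR, and 0.0409 with the block). Of 23 MHC class I genes 1 was called higher, H2-T23, a non-classical class I gene, at 886, 865, 639 and 682 CPM in mScarlet against 361, 499, 445 and 497 CPM in DN (log2 fold change 0.77 with an SE of 0.17, adjusted p = 0.0435 in edgeR). H2-T23 was the only member called, without overlap between the gates, and the call was lost without any of mScarlet libraries 1 to 3 or DN libraries 1 to 4 (edgeR adjusted p up to 0.174).

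The call with the smallest adjusted p among the higher genes was a protease named after mast cells. Mcpt2 was at 142, 123, 101 and 85.7 CPM in mScarlet against 26.4, 32.6, 29.4 and 29.9 CPM in DN (log2 fold change 1.93 with an SE of 0.17, adjusted p = 9.59e-05 in edgeR). The DN libraries were nearly level, and all mScarlet libraries were above them. Mcpt4, its neighbour on chromosome 14, was at 143, 55.1, 60.2 and 50.7 CPM in mScarlet against 11.5, 12.7, 17.4 and 14.5 CPM in DN (log2 fold change 2.46 with an SE of 0.34, adjusted p = 0.00309 in edgeR). Both calls held in all 31 alternative fits. Another neighbour, Mcpt1, was at 36.2 to 57.5 CPM in mScarlet and 26.7 to 49.8 CPM in DN (adjusted p = 0.642 in edgeR). Mast cell markers chosen after these values were seen were at low levels in both gates: Cpa3 was at 0 to 1.05 CPM in mScarlet and 0 to 1.6 CPM in DN, Kit at 0 to 1.09 CPM in both, Tpsb2 at 0 to 1.96 CPM and 0 to 5.9 CPM, and Cma1 at 0.215 to 0.615 CPM and 0 to 4.15 CPM. Of other mast cell genes picked, Gata2 was at 0 to 0.754 CPM in mScarlet and 0.62 to 3.53 CPM in DN. Fcer1a was at 0 to 0.698 CPM and 0.592 to 0.907 CPM, and Ms4a2 at 0 to 0.366 CPM and 0.111 to 1.27 CPM. Tpsab1 was at 0 to 0.144 CPM and 0 to 0.719 CPM. Whether mast cells contributed RNA of Mcpt2 or Mcpt4 was not tested. Mcpt2, Mcpt4, Mcpt1 and the overlapping Mcpt9 are close copies and may exchange reads.

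Several other higher genes with small adjusted p-values were called in each of the 31 alternative fits. Prap1, a secreted protein of gut epithelium, was at 374, 278, 400 and 205 CPM in mScarlet against 54.7, 61.1, 81.1 and 63.7 CPM in DN (log2 fold change 2.27 with an SE of 0.29, adjusted p = 0.00221 in edgeR). Il18, an epithelial cytokine, was at 62.2, 57.5, 49.9 and 64.6 CPM in mScarlet against 11.9, 27.1, 16.4 and 14.5 CPM in DN (log2 fold change 1.74 with an SE of 0.24, adjusted p = 0.00309 in edgeR). In both genes the gates were well apart, with a single DN library, number 2, higher than the rest for Il18. Gch1, the entry enzyme of tetrahydrobiopterin synthesis, was at 297, 299, 292 and 256 CPM in mScarlet against 147, 161, 153 and 167 CPM in DN (log2 fold change 0.87 with an SE of 0.12, adjusted p = 0.00309 in edgeR). Within each gate Gch1 varied little, and the gates were apart. Ms4a8a, Rbp2, which binds retinol in enterocytes, the sulfate transporter Slc26a2, Phgr1 and Fam3b, a secreted protein of islets and gut, had log2 fold changes of 1.70, 1.53, 1.4, 2.10 and 2.49 and also held in all 31 fits. Il18 overlaps Bco2, whose reads cannot be told apart from its own where strand is not stated. The small proline-rich genes Sprr2a1 and Sprr2a3, near-identical copies, had log2 fold changes of 2.39 and 2.28 (adjusted p = 0.0201 and 0.0289 in edgeR), and their calls were lost without mScarlet 1 or 2 or DN 1 or 4.

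Of 23 tested mesenchymal genes 2 were called lower and 0 higher, with a median log2 fold change of -1.46 and 22 of 23 negative. With the block 7 were lower and 0 higher. Among all genes tested 0.695% were called lower, and 2.9% with the block. Tnc, the matrix protein tenascin C, had 6 counts over the 4 mScarlet libraries and 1535 over the 4 DN libraries, or 0 to 0.0333 CPM against 2.83 to 6.17 CPM. The gates were wholly apart, and the call held in 30 of 30 alternative fits that tested it (adjusted p = 0.00221 in edgeR). S100a4, a calcium-binding protein of motile cells, was at 12.9, 7.68, 18.4 and 26.4 CPM in mScarlet against 46.4, 101, 43.5 and 74.3 CPM in DN (log2 fold change -2.02 with an SE of 0.39, adjusted p = 0.0206 in edgeR). The highest mScarlet library, number 4, was below the lowest DN library, number 3, and the call was lost without mScarlet 1, 2 or 3 or DN 1, 2 or 4 (edgeR adjusted p up to 0.0915). Called with the block alone were the receptor Axl (98.8 ± 47.3 CPM in mScarlet, 319 ± 113 CPM in DN), fibronectin, Fn1 (289 ± 80 CPM and 746 ± 126 CPM), the lysyl oxidase Loxl2 (10.7 ± 7.09 CPM and 50.5 ± 18.6 CPM), the integrin Itga5 and Vim, with edgeR adjusted p-values of 0.0208, 0.0223, 0.000464, 0.0213 and 0.0441 with the block. The transcription factors Snai2, Twist1 and Zeb1 were low in both gates, Zeb1 at 0.854 to 4.05 CPM in mScarlet and 3.15 to 7.61 CPM in DN. Fibroblast markers moved beside these genes and by more, with a median of -3.24 over 20 tested and 20 of 20 negative. Pdgfrb was called lower, and 5 were lower with the block. Summed endothelial markers were 14.2 to 21.7 CPM in mScarlet and 32.2 to 40.2 CPM in DN, without overlap. Their median was -1.19 over 13 tested, and 0 were called. Pdgfrb, a platelet-derived growth factor receptor of fibroblasts and pericytes, had 21 counts over the mScarlet libraries and 1848 over the DN libraries (adjusted p = 0.0339 in edgeR; lost without any mScarlet library or DN 1 or 4, up to 0.148). It was at 6.77 and 9.27 CPM in DN libraries 1 and 4 but 1.3 and 0.985 CPM in DN libraries 2 and 3. The fibroblast collagen Col1a1 averaged 15.3 CPM in mScarlet and 155 CPM in DN, and Dcn averaged 1.66 CPM and 35.0 CPM, of which DN library 4 had 408 CPM of Col1a1 and 121 CPM of Dcn. The part of fibroblast and endothelial RNA in the mesenchymal difference was not tested.

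Among 22 tested matrix proteases and inhibitors 1 was higher and 1 lower. Over all genes tested 0.482% were called higher and 0.695% lower, and with the block 2.9% were lower. Mmp10, stromelysin-2, was at 0.442, 1.39, 0.0111 and 2.22 CPM in mScarlet against 49.0, 36.8, 9.15 and 31.4 CPM in DN. The gates did not overlap (log2 fold change -4.96 with an SE of 1.1, adjusted p = 0.0456 in edgeR), but the call was lost without mScarlet 1, 2 or 3 or DN 1, 2 or 4, with an edgeR adjusted p of up to 0.16 without mScarlet library 1. Mmp15, a membrane-type protease, was at 235, 187, 148 and 102 CPM in mScarlet against 61.0, 62.2, 74.8 and 44.7 CPM in DN (log2 fold change 1.47 with an SE of 0.29, adjusted p = 0.0241 in edgeR; lost without the same 6 libraries, up to 0.109). Of 28 genes of actin and contractility 1 was called, Smtn, smoothelin, an actin-binding protein of contractile smooth muscle. It was at 17.7, 29.3, 23.2 and 60.1 CPM in mScarlet against 304, 148, 103 and 263 CPM in DN (log2 fold change -2.65 with an SE of 0.50, adjusted p = 0.0215 in edgeR; lost without mScarlet 1, 2 or 3 or DN 1 or 4, up to 0.0928). With the block 8 of the 28 were lower and 0 higher, among them moesin, Msn, the calponin Cnn3 and Acta2. Among the named genes were 2 tubulins: Tubb6 was at 67.3, 55.6, 66.4 and 133 CPM in mScarlet against 630, 311, 204 and 389 CPM in DN (log2 fold change -2.25 with an SE of 0.44, adjusted p = 0.0258 in edgeR). Tuba1a was at 290 to 334 CPM and 496 to 934 CPM (log2 fold change -1.15 with an SE of 0.19, adjusted p = 0.0118 in edgeR). Tubb6 was lost without mScarlet 1, 2 or 3 or DN 1 or 4 (up to 0.12), and Tuba1a without mScarlet 1 or 3 or DN 1 (up to 0.0533). Smooth muscle markers were low in both gates, Acta2 at 5.22 to 12.0 CPM in mScarlet and 8.4 to 31.2 CPM in DN and Myh11 at mean levels of 0.0989 and 0.127 CPM. Of 11 tested pericyte and smooth muscle markers 10 were negative, with a median log2 fold change of -1.115. Of these markers 0 were called, and 2 were lower with the block. They summed to 11.0 to 29.9 CPM in mScarlet and 20.9 to 47.8 CPM in DN, with overlap. The part of such cells in the contractility genes was not tested.

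Glycolysis was the list with the most calls. Of 24 tested genes 12 were called lower and 0 higher, against 0.695% lower among all genes tested, with a median log2 fold change of -0.87. With the block 14 were lower and 0 higher, against 2.9% lower among all genes tested. The list was written with earlier results known and holds the marker Eno3, so these counts describe it and are no test. The 12 called genes run along the pathway: Gpi1, Pfkp and Pfkl in the upper part, Aldoa and Tpi1 at the split of the sugar, Gapdh, Pgam1, Eno1, Eno3 and Pkm in the lower part, and Ldha and Pdk1, which turn pyruvate to lactate and keep it from the mitochondria. Ldha, lactate dehydrogenase, was at 2599, 2501, 2444 and 2945 CPM in mScarlet against 6309, 4278, 3944 and 5846 CPM in DN (log2 fold change -0.96 with an SE of 0.16, adjusted p = 0.013 in edgeR). Pkm, the pyruvate kinase, was at 2837, 2547, 2402 and 3088 CPM in mScarlet against 6325, 4304, 4283 and 5969 CPM in DN (log2 fold change -0.94 with an SE of 0.16, adjusted p = 0.013 in edgeR). In both genes the mScarlet libraries were close together and below all DN libraries, of which numbers 1 and 4 were the highest. Pgam1, the phosphoglycerate mutase, was at 498, 512, 503 and 889 CPM in mScarlet against 1689, 1135, 1051 and 1723 CPM in DN (log2 fold change -1.22 with an SE of 0.25, adjusted p = 0.0269 in edgeR). Gapdh was at 2198, 2288, 2400 and 3621 CPM in mScarlet against 5694, 4115, 4234 and 7555 CPM in DN (log2 fold change -1.04 with an SE of 0.23, adjusted p = 0.0387 in edgeR). In these, mScarlet library 4 stood above the other mScarlet libraries but below every DN library. Eno3, the muscle enolase, had the largest fall of the list, at 9.87, 7.95, 13.4 and 13.6 CPM in mScarlet against 119, 74.4, 44.2 and 98.5 CPM in DN (log2 fold change -2.91 with an SE of 0.30, adjusted p = 0.000271 in edgeR). Its call held in all 31 alternative fits. The main enolase, Eno1, was at 740 to 1001 CPM in mScarlet and 1336 to 1931 CPM in DN (log2 fold change -0.99 with an SE of 0.18, adjusted p = 0.0161 in edgeR), and its near-identical copy Eno1b, with which it may share reads, had a log2 fold change of -1.01. Eno3 overlaps Pfn1, which was at 2138 to 2480 CPM in mScarlet and 2306 to 3849 CPM in DN (log2 fold change -0.38, adjusted p = 0.33 in edgeR).

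The remaining steps did not move alike. The glucose transporter Slc2a1 and Pgk1 were called with the block alone, at 381 ± 73 CPM in mScarlet and 698 ± 161 CPM in DN for Slc2a1 (adjusted p = 0.074 in edgeR, and 0.00471 with the block) and 118 ± 52.6 CPM and 267 ± 68.9 CPM for Pgk1 (adjusted p = 0.072 in edgeR, and 0.00113 with the block). The hexokinase Hk2 was at 98.5 ± 18.6 CPM in mScarlet and 87.1 ± 24.0 CPM in DN (adjusted p = 0.819 in edgeR). Hk1 was at 264 ± 25.9 CPM and 347 ± 47.1 CPM (adjusted p = 0.185 in edgeR). The lactate exporter Slc16a3 was at 10.5 to 59.9 CPM in mScarlet and 7.81 to 104 CPM in DN, with wide overlap. Called outside the list, and picked after their values were seen, were the glycogen synthase Gys1 (89.8 to 109 CPM in mScarlet, 137 to 220 CPM in DN) and the galactokinase Galk1 (111 to 146 CPM and 192 to 322 CPM). Pgm1, a phosphoglucomutase that links glycogen to glycolysis, was at 142, 158, 142 and 204 CPM in mScarlet against 400, 329, 310 and 429 CPM in DN (log2 fold change -1.18 with an SE of 0.16, adjusted p = 0.00339 in edgeR), and its call held in all 31 fits. Leaving out 1 library left 1 of 24 called without DN library 1, mScarlet library 1 or mScarlet library 3, 4 without mScarlet 2, 5 without DN 4, 10 without DN 2 or DN 3, and 14 without mScarlet 4. Without mScarlet 1, mScarlet 3 or DN 1 the edgeR adjusted p of Ldha was 0.0533, 0.0506 and 0.0528. Of 32 respiratory chain genes 0 were called, and 1 was higher with the block, with a median log2 fold change of 0.004.

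**Figure D3:**
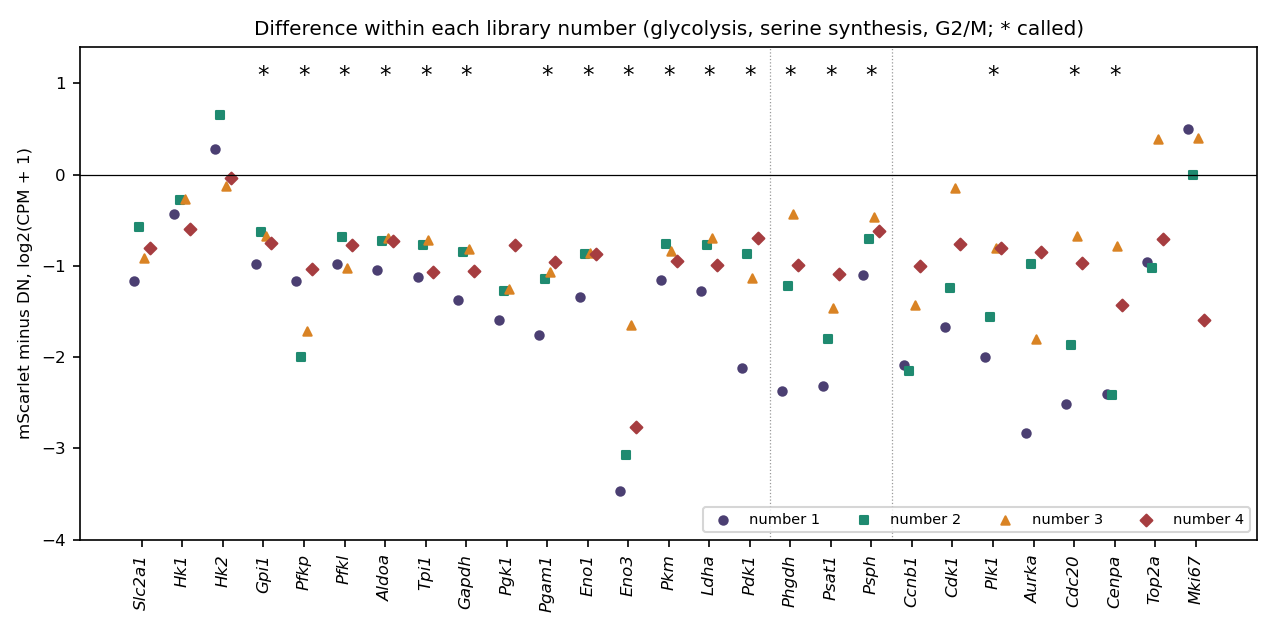
Difference of mScarlet minus DN in log2(CPM + 1) within each library number (vertical axis) for genes of glycolysis, of serine synthesis and of G2/M, separated by dotted lines; symbols mark the number and stars the called genes. The points of called genes lie below 0 in every number, while Hk2 and Mki67 have points on both sides.

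Promoter windows of glycolytic genes are shown because 12 members of the list moved together and HIF binding sites are a known feature of them. The windows are RefSeq's, GRCm38.p6, from 250 bases before to 50 bases after the start of the transcript, on the strand of the gene. Capitals mark the letters ACGTG or GCGTG, read on either strand, the core of the hypoxia response element; CACGTG holds ACGTG on both strands and counts as a match for each.
Ldha, chr7:46845554-46845853, plus strand: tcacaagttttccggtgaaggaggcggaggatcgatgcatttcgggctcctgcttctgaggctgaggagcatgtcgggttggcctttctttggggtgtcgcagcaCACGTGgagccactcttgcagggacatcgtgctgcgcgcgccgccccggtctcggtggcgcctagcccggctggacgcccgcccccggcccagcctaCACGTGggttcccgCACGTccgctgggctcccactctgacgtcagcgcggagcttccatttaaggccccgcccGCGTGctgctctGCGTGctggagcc
Pgam1, chr19:41911621-41911920, plus strand: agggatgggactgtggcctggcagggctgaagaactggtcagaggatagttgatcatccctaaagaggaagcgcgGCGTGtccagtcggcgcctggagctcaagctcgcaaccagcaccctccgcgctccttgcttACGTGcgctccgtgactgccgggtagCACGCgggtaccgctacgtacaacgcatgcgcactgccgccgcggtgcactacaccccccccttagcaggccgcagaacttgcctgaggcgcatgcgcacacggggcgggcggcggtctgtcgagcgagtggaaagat
The Ldha window, the first listed of 2 for the gene, held 7 matches and that of Pgam1 held 3. One of these cores stood in 17 of 23 glycolysis genes with a window (73.9%) and in 43.8% of all genes in the table. It stood in 58.7% of the tested genes with a window. These were 78.9% of the tested genes, fewer than 4 in 5, too few to speak for all of them. For the hypoxia list it was 15 of 17 (88.2%). A match describes these letters and is no binding site.

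Of 21 tested hypoxia-response genes other than glycolytic enzymes 2 were called lower and 0 higher, against 0.695% lower among all genes tested. With the block 11 were lower and 0 higher, against 2.9% lower among all genes tested. The median log2 fold change was -0.92. P4ha2, a collagen prolyl hydroxylase, was at 59.4, 48.5, 41.0 and 91.9 CPM in mScarlet against 183, 186, 185 and 269 CPM in DN (log2 fold change -1.77 with an SE of 0.37, adjusted p = 0.0325 in edgeR). Number 4 was the highest in both gates, and the gates did not overlap. Egln1, the oxygen sensor that marks HIF for degradation and is itself a HIF target, was at 29.0, 15.9, 28.0 and 53.9 CPM in mScarlet against 111, 65.3, 101 and 77.6 CPM in DN (log2 fold change -1.48 with an SE of 0.33, adjusted p = 0.0429 in edgeR). Both were lost without mScarlet library 1, 2 or 3 or DN library 1, 2 or 4 (edgeR adjusted p up to 0.125 for P4ha2 and 0.149 for Egln1), Egln1 also without DN 3 (0.0719), and 7 of the list were called without mScarlet library 4. The mitophagy receptor Bnip3 was at 47.0, 19.4, 21.0 and 120 CPM in mScarlet against 195, 143, 130 and 296 CPM in DN, so that within every number DN was higher although number 4 was high in both (adjusted p = 0.18 in edgeR, and 0.00463 with the block). Vegfa, the angiogenic HIF target, did not follow, at 237 ± 33 CPM in mScarlet and 240 ± 41.8 CPM in DN (adjusted p = 0.988 in edgeR).

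Some genes of serine and amino acid supply were called lower. Of 28 tested genes of the amino acid and ATF4 list 5 were called lower and 0 higher, with a median log2 fold change of -0.52. With the block 9 were lower and 0 higher. Among all genes tested 0.695% were called lower, and 2.9% with the block. All 3 enzymes of serine synthesis were among the 5 called. Phgdh, which draws 3-phosphoglycerate from glycolysis, was at 107, 139, 189 and 149 CPM in mScarlet against 560, 325, 255 and 297 CPM in DN (log2 fold change -1.30 with an SE of 0.27, adjusted p = 0.0304 in edgeR). Psat1, the next enzyme, was at 35.8, 34.1, 37.4 and 53.4 CPM in mScarlet against 182, 121, 105 and 115 CPM in DN (log2 fold change -1.70 with an SE of 0.28, adjusted p = 0.0118 in edgeR). Psph, the last, was at 25.4 to 31.9 CPM in mScarlet and 44.2 to 55.6 CPM in DN (log2 fold change -0.74 with an SE of 0.14, adjusted p = 0.0201 in edgeR). None of the 3 overlapped, and DN library 1 was the highest in each. The asparagine synthetase Asns was at 49.0, 49.3, 47.5 and 45.5 CPM in mScarlet against 94.6, 68.7, 76.8 and 78.3 CPM in DN (log2 fold change -0.73 with an SE of 0.13, adjusted p = 0.0146 in edgeR). The amino acid carrier Slc7a5 had a log2 fold change of -1.41 (adjusted p = 0.013 in edgeR), and Mthfd1l, a mitochondrial folate enzyme outside the list picked after its values were seen, was at 8.47 to 13.2 CPM in mScarlet and 21.7 to 47.8 CPM in DN. Of the 5 calls 0 were left without DN library 1, mScarlet library 1 or mScarlet library 3 and 3 without mScarlet library 2.

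Some genes of mitosis and DNA replication were called, all of them lower. Of 29 G2/M genes 3 were called lower and 0 higher, with a median log2 fold change of -1.36 and 28 of 29 negative. The block gave 14 lower and 0 higher. Among all genes tested 0.695% were called lower, and 2.9% with the block. Cdc20, the activator of the anaphase ubiquitin ligase, was at 30.4, 29.6, 54.7 and 51.4 CPM in mScarlet against 178, 110, 88.0 and 102 CPM in DN (log2 fold change -1.52 with an SE of 0.28, adjusted p = 0.0168 in edgeR). Cenpa, the centromeric histone, was at 24.0, 19.9, 32.5 and 42.1 CPM in mScarlet against 132, 111, 56.6 and 115 CPM in DN (log2 fold change -1.80 with an SE of 0.36, adjusted p = 0.025 in edgeR). Plk1, a mitotic kinase, was at 19.5, 15.6, 24.9 and 24.7 CPM in mScarlet against 80.8, 48.1, 44.2 and 43.8 CPM in DN (log2 fold change -1.36 with an SE of 0.29, adjusted p = 0.0339 in edgeR). None of the 3 overlapped, and DN library 1 was the highest in each. The median difference over the list was -1.67 in number 1, -1.49 in number 2, -0.78 in number 3 and -0.85 in number 4. Aurka, Birc5, Ccnb1 and Foxm1 were called with the block alone (adjusted p = 0.0184, 0.00998, 0.0135 and 0.0209 in edgeR with the block). Mki67, the proliferation marker, was low in both gates, at 0.209 to 3.25 CPM in mScarlet and 0.741 to 2.64 CPM in DN, and Top2a was at 4.63 to 12.5 CPM and 9.27 to 22.1 CPM, so these 2 did not separate the gates. Of 35 DNA replication genes 1 was called lower and 0 higher, and with the block 8 and 0; it was Rfc5, a clamp loader subunit, at 52.5 to 75.2 CPM in mScarlet and 93.5 to 117 CPM in DN (log2 fold change -0.71 with an SE of 0.16, adjusted p = 0.0438 in edgeR). Of 29 MYC and ribosome biogenesis genes 1 was called lower, the spermidine synthase Srm, at 51.6 to 64.2 CPM and 93.6 to 170 CPM (log2 fold change -0.99 with an SE of 0.22, adjusted p = 0.0426 in edgeR). Myc itself was at 107 ± 26.1 CPM in mScarlet and 140 ± 25.4 CPM in DN (adjusted p = 0.534 in edgeR). Of the 3 G2/M calls 0 were left without DN library 1, mScarlet 1 or mScarlet 2 and 1 without DN 2, DN 4 or mScarlet 3, while 7 genes of the list were called without mScarlet 4. Rfc5 and Srm were lost without DN library 1 (adjusted p = 0.174 in edgeR for each) and also without DN 2, DN 4 or any of mScarlet libraries 1 to 4. Cdc20 overlaps Elovl1, so its reads are uncertain where strand is not stated.

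Windows of Cdc20 and Plk1 are shown because both were called and the cell cycle homology region, in capitals as TTTGAA on either strand, is a known element of G2/M promoters.
Cdc20, chr4:118437294-118437593, minus strand: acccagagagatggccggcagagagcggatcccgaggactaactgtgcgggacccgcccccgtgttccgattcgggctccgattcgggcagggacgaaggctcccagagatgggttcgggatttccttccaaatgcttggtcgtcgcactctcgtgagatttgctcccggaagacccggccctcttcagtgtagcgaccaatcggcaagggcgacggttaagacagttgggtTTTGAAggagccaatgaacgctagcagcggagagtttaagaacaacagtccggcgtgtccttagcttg
Plk1, chr7:122159185-122159484, plus strand: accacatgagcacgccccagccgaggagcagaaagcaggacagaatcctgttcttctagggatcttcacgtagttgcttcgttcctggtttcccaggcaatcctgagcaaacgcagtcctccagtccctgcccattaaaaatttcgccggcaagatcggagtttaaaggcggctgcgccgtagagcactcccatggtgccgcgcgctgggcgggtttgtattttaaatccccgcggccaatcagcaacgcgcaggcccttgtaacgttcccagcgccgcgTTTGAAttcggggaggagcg
The match began at position -18 from the start of the transcript in Cdc20 and at position 30 in Plk1. TTTGAA stood in 18.1% of all windows of the table. It also stood in 17 of the 23 G2/M genes with a window and in 13.0% of the tested genes with one. Windows covered 79.3% of the list and 78.9% of the tested genes, again fewer than 4 in 5, so a comparison of these shares is void.

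Signalling lists gave single calls. Of 31 genes of RAS-ERK output and feedback 1 was higher and 2 lower. The shares over all genes tested were 0.482% higher and 0.695% lower, and with the block 2.52% and 2.9%. Egfr, the epidermal growth factor receptor, was at 72.6, 59.0, 55.7 and 29.9 CPM in mScarlet against 24.2, 26.2, 22.7 and 11.4 CPM in DN (log2 fold change 1.36 with an SE of 0.32, adjusted p = 0.0487 in edgeR). Its gates were separate, but the call was lost without any of mScarlet libraries 1 to 3 or DN libraries 1 to 4 (edgeR adjusted p up to 0.171). Egfr lost its call in 19 of 31 alternative fits, also with RLE or upper-quartile factors (adjusted p = 0.0519 and 0.0503 in edgeR). Rps6ka2, a ribosomal S6 kinase downstream of ERK, was at 8.6, 6.99, 13.8 and 20.2 CPM in mScarlet against 210, 72.7, 51.5 and 99.6 CPM in DN (log2 fold change -3.13 with an SE of 0.54, adjusted p = 0.0136 in edgeR; lost without mScarlet 1, 2 or 3 or DN 1, up to 0.0681). DN library 1 was the highest, and even the highest mScarlet library, number 4, was below all DN libraries. Etv4, a transcription factor induced by ERK, had a log2 fold change of -1.23 (adjusted p = 0.0456 in edgeR, up to 0.174 without DN library 1), whereas the feedback genes Dusp6 (264 ± 20 CPM in mScarlet, 292 ± 26.1 CPM in DN) and Spry4 (mean 34.3 and 37.3 CPM) had edgeR adjusted p-values of 0.698 and 0.87. Of 22 Notch genes 1 was lower, Nrarp, a target that dampens Notch, at 14.2, 16.3, 14.4 and 24.8 CPM in mScarlet against 34.3, 32.8, 43.9 and 33.2 CPM in DN (log2 fold change -1.05 with an SE of 0.23, adjusted p = 0.0393 in edgeR; lost without mScarlet 1, 2 or 3 or any DN library, up to 0.148). Hes1, another Notch target, was at mean levels of 66.4 CPM in mScarlet and 62.2 CPM in DN (adjusted p = 0.92 in edgeR). The lysosomal sialidase Neu1 was the 1 gene called of 28 in the lysosome and autophagy list (log2 fold change 0.51, adjusted p = 0.0387 in edgeR). Its call was lost without mScarlet 1, 2 or 3 or DN 1, 2 or 4 (edgeR adjusted p up to 0.16), and in 17 of 31 alternative fits in all. The lists of interferon response, NF-kB and inflammation, heat shock and immediate-early, TGF-beta, YAP and SRF, peroxisome, NRF2, endoplasmic reticulum folding, and G1 cyclins and p53 targets had 0 genes called, and 0 to 4 in either direction with the block.

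**Figure D4:**
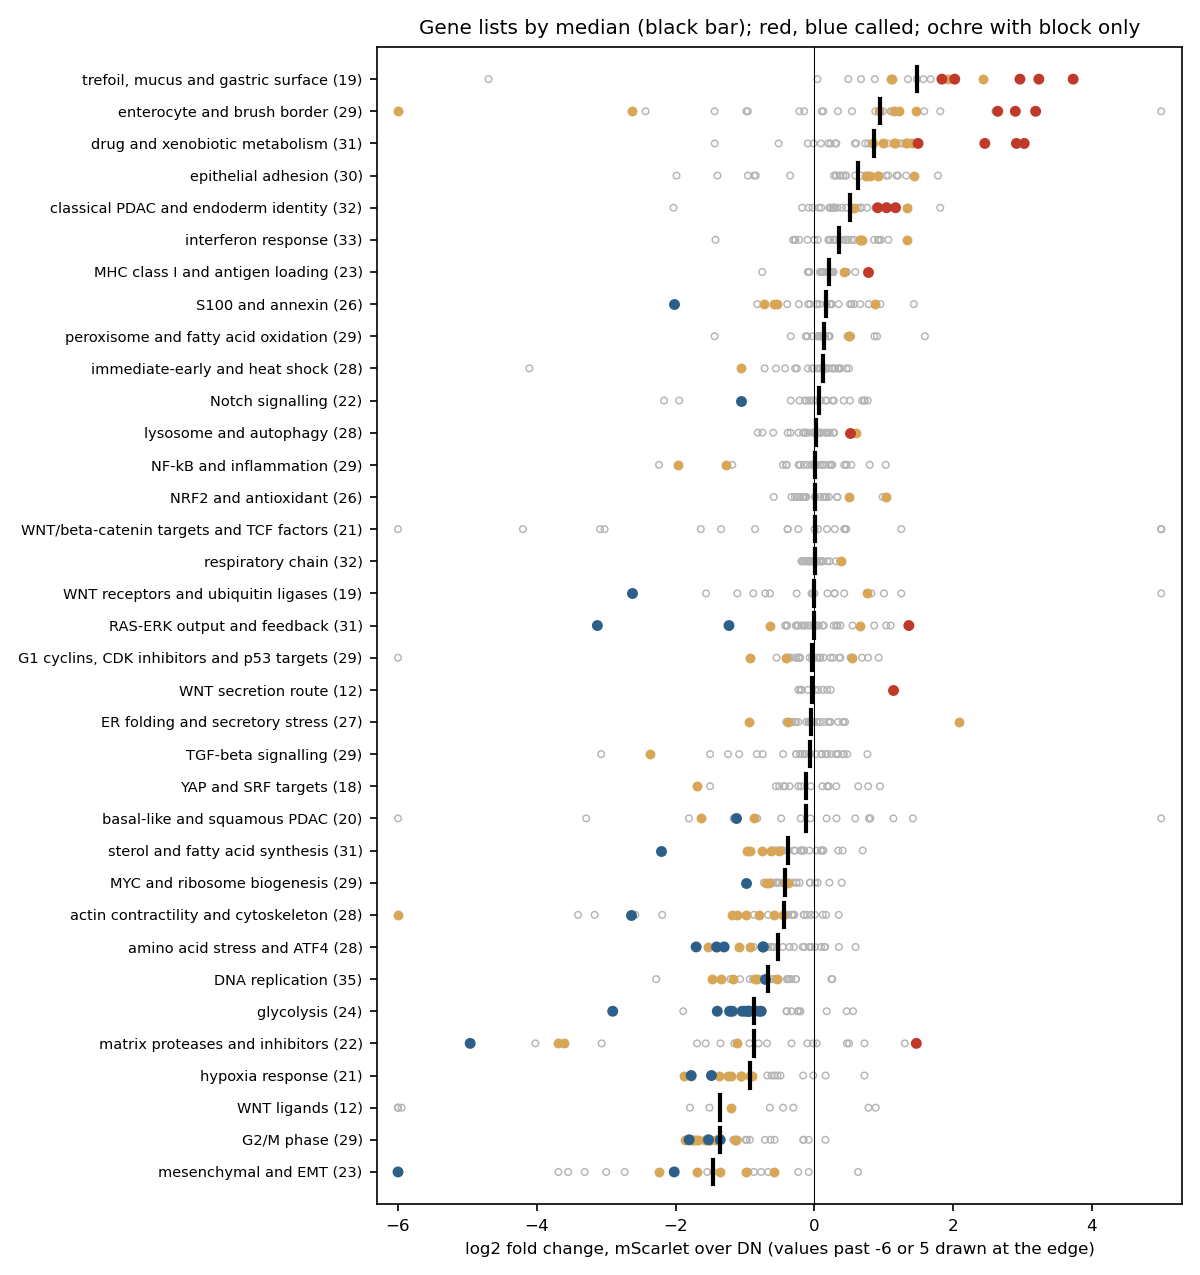
Log2 fold change of mScarlet over DN (horizontal axis) of the tested members of each gene programme of at least 10 tested genes, markers of other cells not drawn, 1 row a list with the number tested in brackets, ordered by the median (black bar). Red points were called higher, blue lower, ochre only with the number as a block and open grey points were not called; among these programmes trefoil and mucus genes head the order at a median of 1.48 and mesenchymal genes close it at -1.46.

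Further lower genes of large change had varied roles. The pyrophosphate transporter Ank was at 1.65, 1.88, 1.95 and 4.28 CPM in mScarlet against 28.3, 37.7, 7.56 and 8.31 CPM in DN (log2 fold change -3.07 with an SE of 0.66, adjusted p = 0.0378 in edgeR). Beta-adducin, Add2, a protein of the membrane skeleton, was at 9.39, 15.4, 15.2 and 61.6 CPM in mScarlet against 181, 111, 70.3 and 166 CPM in DN (log2 fold change -2.38 with an SE of 0.54, adjusted p = 0.0484 in edgeR). mScarlet library 4 was the highest of its gate in both, just under the lowest DN library in Add2. Both calls were lost without mScarlet 1, 2 or 3 or DN 1 or 2, and that of Add2 also without DN 4, with edgeR adjusted p-values of up to 0.15 for Ank and 0.167 for Add2. Serpind1, heparin cofactor II, and R3hdml had log2 fold changes of -3.0 and -2.56 and were lost in 16 and 12 fits. Serpind1 overlaps Pi4ka, which was at 20.6 to 38.1 CPM in mScarlet and 16.7 to 25.6 CPM in DN. Arap3, a GTPase-activating protein, the corepressor Rcor2 and Nt5dc2 had log2 fold changes of -2.47, -2.21 and -2.03, and the call of Nt5dc2 held in all 31 fits. Nt5dc2 overlaps Stab1, a macrophage receptor, which was at 2.48 to 5.83 CPM in mScarlet and 4.24 to 30.2 CPM in DN. Nt5dc2 itself was at 14.4 to 26.7 CPM in mScarlet and 57.7 to 105 CPM in DN, without overlap. Plxnd1, a semaphorin receptor, was at 38.6 to 50 CPM in mScarlet and 88.4 to 114 CPM in DN (log2 fold change -1.17 with an SE of 0.20, adjusted p = 0.013 in edgeR). Among genes picked after their values were seen, Hmga1, a chromatin architecture protein, was at 119, 105, 109 and 210 CPM in mScarlet against 828, 400, 272 and 618 CPM in DN (log2 fold change -1.96, adjusted p = 0.0201 in edgeR), and the non-muscle myosin Myh14 was at 75.5 to 193 CPM in mScarlet and 23.8 to 48.5 CPM in DN (log2 fold change 1.97, adjusted p = 0.0484 in edgeR).

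Further genes were called with the number block alone. Among the higher ones Mucl3, a mucin-like gene, was at 780, 138, 360 and 84.4 CPM in mScarlet against 65.4, 14.8, 30.0 and 11.5 CPM in DN, so numbers 1 and 3 were high in both gates (adjusted p = 0.0849 in edgeR, and 0.00319 with the block). The gastrokine Gkn1 and Fcgbp, a mucus protein of goblet cells, were at 42.5 to 249 CPM and 57.7 to 230 CPM in mScarlet and at 13.1 to 32.5 CPM and 16.8 to 57.3 CPM in DN (adjusted p = 0.00998 and 0.0165 in edgeR with the block). The stress sensor of mucous cells, Ern2, was at 39.7 to 116 CPM in mScarlet and 10.7 to 28.9 CPM in DN (adjusted p = 0.0822 in edgeR, and 0.00282 with the block). Cyp4f14, Ces3a, Ano7 and Tspan1 complete the 8 with the largest change. Among the lower ones were placental growth factor, Pgf, at 1.57, 2.62, 1.18 and 14.3 CPM in mScarlet against 144, 36.6, 19 and 106 CPM in DN (adjusted p = 0.0883 in edgeR, and 0.000848 with the block), and thrombomodulin, Thbd, at 0.0222 to 2.04 CPM and 5.38 to 16.1 CPM (adjusted p = 0.0232 in edgeR with the block). The matrix genes Aebp1 and Mgp, the prostacyclin synthase Ptgis, the urea transporter Slc14a1, Mgarp and Gzme, a granzyme gene, were the others. Of these Aebp1 was at 58.8 CPM in DN library 4 and 4.53 to 12.8 CPM in the other DN libraries, and Mgp at 24.6 CPM in DN library 4 and 14.6 CPM in DN library 1, the library with the highest fibroblast sum being DN 4; the part of fibroblast RNA was not tested.

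The size of the difference was uneven over the numbers. The median absolute difference of the 188 genes, in log2(CPM + 1), was 1.66 in number 1, 1.18 in number 2, 1.04 in number 3 and 1.05 in number 4, and number 1 had the largest difference in 149 genes. mScarlet library 4 was the highest mScarlet library for 76 of the 111 lower genes and the lowest for 53 of the 77 higher genes, that is, the nearest to DN. DN library 1 was the highest DN library for 72 of the 111 lower genes, and DN library 3 was the lowest for 66. In the same libraries the summed macrophage markers were 3773 CPM in mScarlet library 4 and 5291 CPM in DN library 1, the highest of their gates; their part was not tested. Whether a chromosome stood apart could not be shown. A two-sided exact permutation test, which enumerated 70 ways to split the 8 libraries, gave its smallest p for chromosome 13 (p = 0.0857, adjusted p = 0.5713 over the 20 chromosomes), and 0.0286 was the smallest p it could give, so no single chromosome could pass after adjustment. The test did not use the pairing by number. Chromosome 17, with Tff1, Tff2 and Tff3 side by side, had 10 higher and 5 lower calls among 848 genes (1.77%).

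The step from GFP-only to double-positive cells adds mScarlet to cells with the WNT reporter signal, and this comparison shares no library with mScarlet against DN. In DP against GFP 90 genes were called (0.564%). Of its libraries, GFP 1 had summed macrophage markers of 38102 CPM. GFP library 4 had summed acinar markers of 36908 CPM and summed fibroblast markers of 17265 CPM. The part of these other cells in the size of the steps was not tested. Of the 188 genes called in mScarlet against DN, 48 were also called in DP against GFP and 187 had the same sign, which 68.5% of all genes tested had. The exception was Neu1, with a log2 fold change of -0.04 in DP against GFP. The difference was smaller in DP against GFP for 162 of the 188, with a median absolute log2 fold change of 1.09 against 1.36, though the genes were chosen for their difference in mScarlet against DN. Eno3 was at 5.45, 7.07, 7.19 and 9.04 CPM in DP against 53.2, 47.5, 32.5 and 33.2 CPM in GFP (log2 fold change -2.53 with an SE of 0.29, adjusted p = 0.00347 in edgeR). Porcn was at 51.4, 45.6, 47.9 and 33.4 CPM in DP against 19.1, 30.8, 38.3 and 29.3 CPM in GFP, with overlap (log2 fold change 0.60 with an SE of 0.23, adjusted p = 0.202 in edgeR). Mcpt2 was at 98.3 to 109 CPM in DP and 36.1 to 56.7 CPM in GFP (log2 fold change 1.12, adjusted p = 0.0195 in edgeR), a smaller step than the 1.93 without GFP, and its interaction had an unadjusted edgeR p of 0.00344. The interaction, which tests whether the mScarlet step differed with GFP, called 0 genes by edgeR, with 525 genes at an unadjusted p under 0.05 (3.29%); DESeq2 called 39 and limma voom 0. For Tff3, Slc9a4 and Tff1 the steps of 2.92, 1.83 and 2.14 in DP against GFP missed the threshold (adjusted p = 0.0854, 0.0834 and 0.0836 in edgeR). No label says whether libraries of the same number come from the same animal, in which case the 2 comparisons would share animals.

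**Figure D5:**
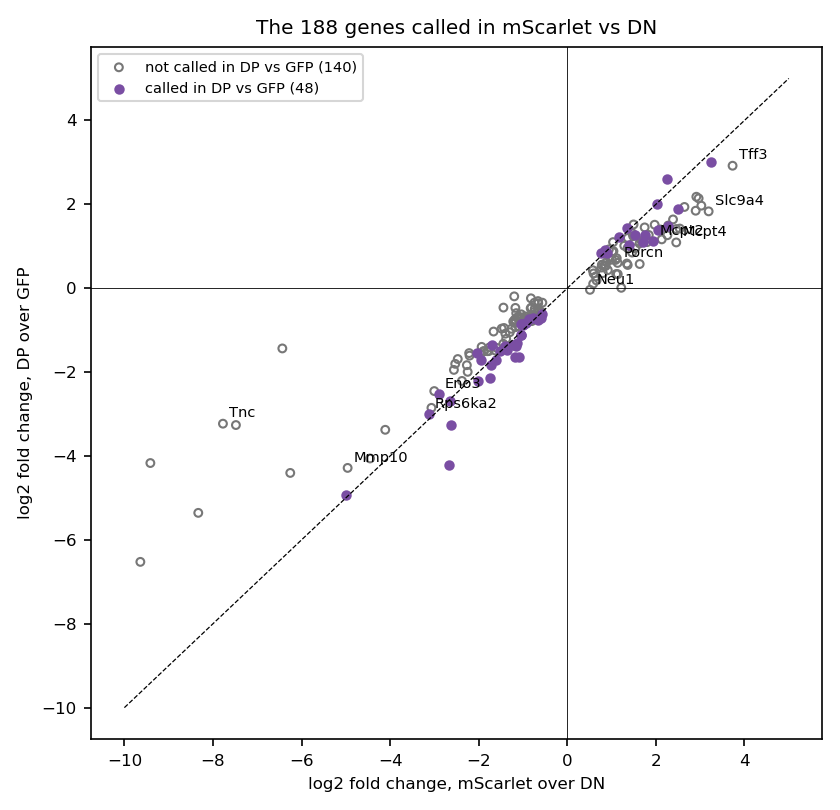
Log2 fold change of DP over GFP (vertical axis) against that of mScarlet over DN (horizontal axis) for the 188 genes called in mScarlet against DN; filled points were also called in DP against GFP (48), open ones were not (140), and the dashed line marks equal change. Points fall in the lower left and upper right, apart from Neu1, and 162 lie nearer to 0 on the vertical axis.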

How the data were processed

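Sorted cancer cells were lysed, and per the labels' protocols RNA was purified with a low-input column kit, copied to full-length cDNA, amplified by PCR and sequenced as paired reads. The deposited values are raw read counts per gene for 24467 genes, keyed by Entrez identifier, 1 file per library. The submitters' processing notes name STAR, DESeq2 1.24.0 and GRCm38 (mm10) without their roles; no source used here gives the counter, annotation or strand setting. Reads are not molecules, so floors of 3 counts cover counting error only. The 30 genes without a symbol held 0.891 to 1.1% of counts in mScarlet and 1.2 to 1.38% in DN.

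Counts were fitted with edgeR 4.0.16 in R 4.3.3 (TMM scaling, expression filter by group, robust quasi-likelihood test) over all 16 libraries with group as the only term, and p-values were adjusted by Benjamini-Hochberg over 15963 genes. CPM are TMM-scaled, and SE is the log2 fold change divided by the root of F. Alternatives used DESeq2 1.42.0, limma 3.58.1 (voom), other scalings and filters, the library number as a block, and fits without single libraries. Scripts were tested on simulated data. Same-numbered mScarlet and DN libraries deviated together from their group means (r = 0.202, 0.298, 0.143 and 0.22), so the numbers were taken to pair samples; no label ties a number to an animal.

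Members and gene lists were chosen with earlier results of these data known. Named genes were the markers Porcn, Tff3, Slc9a4 and Eno3; per direction the 14 called genes of largest change without overlap and at least 10 CPM; the 8 further ones of smallest p and at least 50 CPM; the 8 of largest change called with the block alone; and up to 3 per list. Gene models without a symbol were passed over. Other genes, such as members that missed the threshold, mast cell genes and neighbours, were picked after their values were seen. Some results are not reported here.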

Additional observations from a re-analysis of the deposited data

Results flagged for a closer look

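In 28 of 214 groups of 4 libraries, over 107 named genes, 1 library lay far from the other 3 by Dixon's test on CPM. For independent groups with normal spread, chance alone flags about 1 in 20. CPM are often skewed and the genes share libraries, so that rate is only a rough mark here. In mScarlet, library 4 was the far one for 11 genes. It was the highest for the cytoskeletal genes Tubb6 (133 CPM, next 67.3) and Add2 (61.6, next 15.4), for Pgf (14.3, next 2.62), Mgarp (7.71, next 0.98), R3hdml (5.12, next 1.86), Ank (4.28, next 1.95), Gzme (4.27, next 0.643), Slc14a1 (4.03, next 0) and Aebp1 (2.2, next 0.111), and for the macrophage marker Apoe (1343, next 293). All of these but Apoe were lower in mScarlet than in DN by the reported fit or the block. It was the lowest for Gch1 (256, next 292).

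Library 1 of mScarlet was the highest for Lypd8 (174 CPM, next 48.0), Mcpt4 (143, next 60.2) and Gkn1 (249, next 75.6), all higher in mScarlet by the reported fit or the block, and for the acinar gene Cela2a (254, next 31.3). mScarlet library 3 was the highest for the endothelial gene Egfl7 (9.43, next 5.96).

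In DN, library 1 was the highest for the proliferation and growth genes Plk1 (80.8 CPM, next 48.1), Rfc5 (117, next 96.9) and Srm (170, next 106), for the neutrophil gene Ngp (180, next 30.6) and for the fibroblast gene Col6a1 (536, next 352). DN library 4 was the highest for P4ha2 (269, next 186), Aebp1 (58.8, next 12.8), Egfl7 (13.0, next 8.37) and the islet genes Ins2 (0.622, next 0.0775) and Iapp (0.542, next 0.0756). DN library 2 was the highest for R3hdml (29.3, next 11.3) and DN library 3 for Nrarp (43.9, next 34.3).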

How the results depend on the processing

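The 188 calls varied in number and not in sign: 0 of them reversed in any of 31 alternatives. Counts within 1.5 times of 188 came from RLE factors (197), upper-quartile factors (173), no low-count filter (170) and a fit without the robust spread (159), the last chosen after seeing the data. More genes were called with a stricter filter (326, fewer genes tested), DESeq2 (808), limma voom (765), the 8 mScarlet and DN libraries alone (343), the replicate block with 16 libraries (865) and with 8 (709). Without GFP libraries 1 and 4, chosen after seeing the data, 580 were called. Leaving out 1 library gave 17 to 362 calls, from 17 without DN library 1 to 362 without GFP library 1. It gave 23 to 312 without mScarlet libraries, 17 to 162 without DN libraries, 118 to 171 without DP libraries and 152 to 362 without GFP libraries. With the replicate block and 1 number left out it gave 331 without number 1, 145 without 2, 294 without 3 and 736 without 4. The share of higher calls was 41% and rose to 73.9% without mScarlet library 1 and 70.6% without DN library 1 or mScarlet library 3; the cause was not tested. The interaction gave 0 calls by edgeR and 39 by DESeq2. Of 2137 values of 69 named called genes, 1719 kept their call and 418 lost it. Of 1454 list medians 160 moved beyond the spread, as did 257 of 620 chromosome medians. Epcam and Axin2 had libraries at 0 counts, where nothing under the floor of 3 counts can be told.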
